A study of Mus musculus with 11 samples.

Results

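The genes of the proteasome, the protease that degrades ubiquitin-tagged proteins, were followed in whole livers of mice in which a YAP transgene was switched on. Members were the rows whose symbol is Psm, a letter from a to g and a number (Psma1, Psmd14 and so on), apart from the 3 interferon-inducible subunits Psmb8, Psmb9 and Psmb10, which are described beside the pathway. The rule used names alone and found 45 of the 20893 rows. All 45 passed the filter on low values (at least 0.5 eRPKM in at least 3 livers), together with 14244 genes in all.

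The study asked how gene expression in the liver changes as YAP, the effector of the Hippo pathway, becomes active. Controls were 4 C57BL/6 mice labelled ROSA26-rtTA-IRES-EGFP; WT and fed doxycycline for 7 days. Induced mice were labelled ROSA26-rtTA-IRES-EGFP; tetYAP, with 4 livers after 3 days and 3 livers after 7 days of doxycycline food, so every group carried the rtTA allele and received doxycycline. According to the methods the transgene is an activated YAP (S127A) behind a tet promoter at Col1A1, and rtTA is released by Cre under the albumin promoter, which limits induction to cells that have expressed albumin. Ages of the mice were not given in the sources used here. Each library came from 1 mouse, and total RNA of the homogenized organ was sequenced. Values listed for single livers are in the order of the replicate numbers. The unit is eRPKM, exonic reads divided by the exon length of the gene in kilobases and by the reads of the library. In RNA from whole tissue, fewer cells of a type and less RNA per cell cannot be told apart.

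The 26S proteasome is built from a 20S core and 19S caps. The core is a barrel of stacked rings: outer rings of alpha subunits (Psma1 to Psma7) gate the entry, and inner rings of beta subunits (Psmb1 to Psmb7) hold the protease sites. In the cap, the base unfolds substrates with 6 ATPases (Psmc1 to Psmc6), and the lid (most Psmd genes) docks on the base and removes ubiquitin. Other members assemble the particle (Psmg1 to Psmg4 for the core, Psmd5, Psmd9 and Psmd10 for the base) or replace the cap (the activators Psme1 to Psme4). Subunits of the core and cap enter the particle in fixed proportions, and in many cells their genes are raised together by the transcription factor Nfe2l1 when the protease is inhibited.

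Depth was not balanced across the groups. Control libraries held 1251396 to 5495697 reads on genes, 3-day libraries 2660233 to 3681416 and 7-day libraries 5312486 to 5941357. The most abundant genes of every library stopped at 1280 to 1502 reads per kilobase whatever its depth, and Alb held 2417 to 3102 reads in every library. For genes near this ceiling eRPKM was therefore lower in deeper libraries, and the 7-day group was the deepest. Whether duplicate reads were removed from the RNA libraries is not given in the sources used here. Cyr61 and Ctgf, target genes of YAP, served as a check of the labels. Cyr61 ranged from 5.76 to 14.3 eRPKM in controls and from 90.5 to 91.3 after 7 days, and Ctgf from 5.20 to 14.2 and from 87.3 to 103.1. Summed levels of hepatocyte markers (7 of 7 in the table) ranged from 1533 to 4611 eRPKM in controls, from 1794 to 2316 after 3 days and from 1053 to 1236 after 7 days. These markers were dense, with means of 665 (Ttr) to 1319 (Apoa1) reads per kilobase, the highest of them at the ceiling. Their sums decreased with depth within the controls, from 4611 in the shallowest to 1533 in the deepest. The deepest, control 2, held 5495697 reads, within the range of the 7-day libraries, whose sums were 1053 to 1236. Among them, 7-day livers 1 and 3 held 5356541 and 5312486 reads, fewer than control 2, and summed to 1236 and 1225. Control 2 is a single liver, and the parts of depth and hepatocyte content in these sums were not tested. Macrophage markers (5 of 7 in the table) summed to 194 to 393, 251.1 to 447 and 651 to 742, and markers of dividing cells (5 of 5) to 3.90 to 17.2, 12.7 to 93.6 and 92.2 to 142 in the same order. Controls and 7-day livers also did not overlap for cholangiocyte (37.5 to 49.0 against 61.5 to 111), stellate (143 to 204 against 97.0 to 106) and erythroid markers (44.2 to 107.6 against 26.8 to 32.5), but did for endothelial (109 to 193 against 183 to 218), T cell (2.92 to 6.802 against 4.597 to 8.81) and B cell markers (3.75 to 8.60 against 4.64 to 12.4). No marker was at 0 in every liver. The livers with more Xist than Ddx3y, as in females, were controls 2 and 3, 3-day livers 3 and 4 and all 7-day livers. The part of cell composition and of sex in the results below was not tested.

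In control livers the 14 constitutive core subunits were among the more abundant members. Their mean levels ran from 23.9 eRPKM for Psmb2 to 152 for Psmb4, a range of 6.38-fold for subunits that stand in equal copy in the particle. These per-length levels are as deposited, on a scale that may understate the densest genes. The 19S ATPases ran from 39.8 (Psmc2) to 93.4 eRPKM (Psmc6), the lid subunits from 17.2 (Psmd3) to 89.2 (Psmd6), and the activators from 31.0 (Psme4) to 103 (Psme1). The assembly factors were lower, with 8.96 (Psmg2) to 16.0 (Psmg1) for the core and 11.1 (Psmd10) to 29.9 (Psmd5) for the base. A pair of members known from other organs stood far below the rest. Psma8, the alpha subunit of the testis, was at 1.33 eRPKM with 2 to 18 reads per liver, and Psmb11, the beta subunit of the thymus, at 1.72 eRPKM with 9 to 52 reads.

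After 3 days of induction no difference between the groups was detected for any member. The comparison asked for an early response, and limma called 0 of 45 members (adjusted p under 0.01 and more than 0.5 log2 units of change either way), against 0.0421% of all tested genes. Even at an unadjusted p under 0.05, 0 members passed (12.1% of tested genes, 7.86% higher and 4.21% lower). On recovered reads limma-voom called 0 as well (0.00702% of tested genes higher and 0 lower). Log2 fold changes ran from -0.23 (Psmd11, a lid subunit) to 0.39 (Psmg1), with a median of 0.08 beside 0.02 for all tested genes. Every 95% interval lay between -1 and 1, with a median distance of 0.39 from estimate to bound, so changes beyond 1 log2 unit lay outside each of them. In no member did the 3-day livers and the controls separate without overlap, which happened upward in 3.38% and downward in 2.25% of tested genes.

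The 3-day livers differed among themselves more than from the controls. In livers 1 and 4, whose column names carry the suffix MF with no stated meaning, the median of the alpha subunits stood 0.38 and 0.23 (log2) above the control mean, and that of the beta subunits 0.23 and 0.29 above it. In liver 2 both medians were near 0 (0.00 and -0.03), and in liver 3 they were -0.32 and -0.35. Livers 1 and 4 were both above livers 2 and 3 for 23 of 45 members (23.2% of tested genes), among them 7 of 8 alpha and 5 of 8 beta subunits, and both below for 10 of 45 (32.7% of tested genes). Psma7, an alpha subunit, was at 88.7, 87.9, 88.3 and 96.9 eRPKM in the controls, 147, 88.9, 73.3 and 148 after 3 days of induction and 78.3, 71.7 and 77.6 after 7 days. Its levels in 3-day livers 1 and 4 were higher than in all other livers, and it is shown here with its values already seen. The ATPase subunit Psmc5 showed the opposite order within the 3-day livers, with its lowest level in liver 1 and its highest in liver 3. Without the MF livers (a choice made after the data were seen) the median of the members at 3 days was -0.08.

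**Figure D1:**
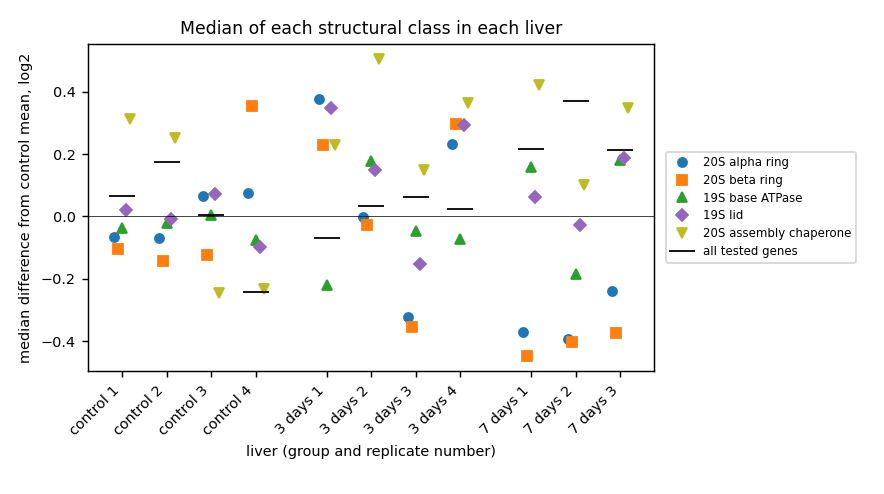
Median difference from the control mean (log2 of eRPKM + 0.5, vertical axis) of 5 structural classes in each of the 11 livers (horizontal axis, by group and replicate number). Coloured symbols are class medians and black bars the median of all tested genes. The alpha and beta subunits lie between -0.24 and -0.45 in the 3 livers of 7 days, above 0.2 in 3-day livers 1 and 4, and below -0.3 in 3-day liver 3.

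After 7 days no member passed the threshold. The estimates of the 14 core subunits lay below 0, as did single cap subunits such as Psmc6 and Psmd6, while those of the lid subunits Psmd3 and Psmd8 and of the assembly factor Psmg1 lay above it. Limma called 0 of 45 members, while 23.8% of tested genes were called (18% higher and 5.77% lower). At an unadjusted p under 0.05, 4 members were higher (34.5% of tested genes) and 9 lower (12.9% of tested genes). On recovered reads limma-voom called 1 member higher, the lid subunit Psmd8 (19.7% of tested genes), and 0 lower (6.66%). With an adjusted p under 0.05 and any fold change, 2 members were higher (Psmd3 and Psmd8, beside 27.9% of tested genes) and 6 lower (Psma3, Psma4, Psmb1, Psmb7, Psmc6 and Psmd6, beside 9.98%). Below 0 were 26 of 45 members (36% of tested genes), and the median log2 fold change was -0.09 for the members and 0.26 for all tested genes. Without overlap between the groups, 5 members were higher (36.7% of tested genes) and 16 lower (13.3%). Leaving out 7-day liver 2 took the count of higher members to 12 (39.8% of tested genes). Leaving out any 1 liver gave 16 to 18 lower members (14% to 18.3% of tested genes).

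Scaling moved these values for every gene. The median of all tested genes was 0.26 as deposited, 0.03 after median-ratio size factors and -0.08 after quantile normalization, and that of the members was -0.09, -0.36 and -0.10. Relative to all genes, the members thus stood at -0.35, -0.38 and -0.02. With only the control and 7-day livers in the fit, limma called Psmd8 higher (20.1% of tested genes) and Psma3, Psmc6 and Psmd6 lower (6.6%).

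**Figure D2:**
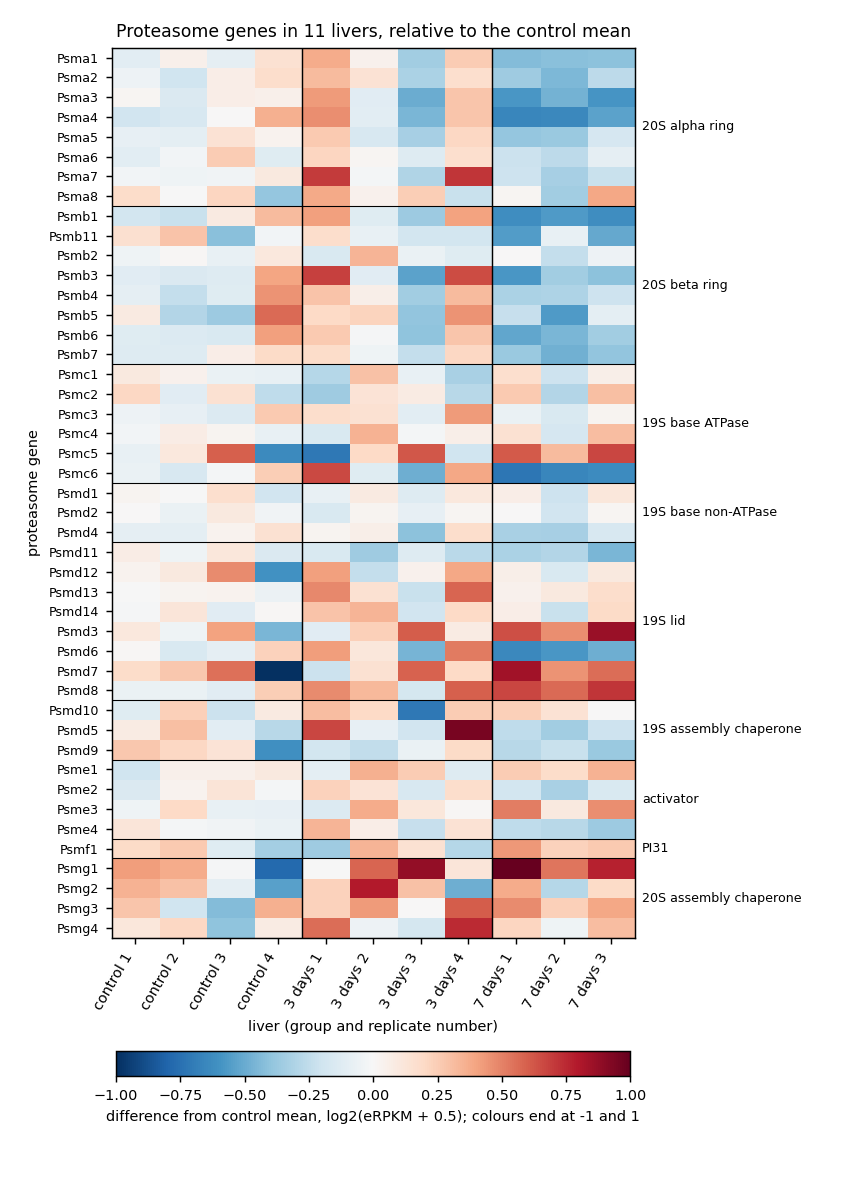
Level of each of the 45 proteasome genes (rows, grouped by structural class) in each of the 11 livers (columns), as the difference from the mean of the 4 controls in log2(eRPKM + 0.5). Red is higher and blue lower, with colours ending at -1 and 1. Most alpha and beta rows are blue in the 3 livers of 7 days, and the 3-day livers 1 and 4 show red in the same rows.

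Of the 14 constitutive core subunits, 14 had a log2 fold change below 0 at 7 days, from -0.09 (Psmb2) to -0.61 (Psma4) with a median of -0.39, and 10 had all 7-day livers below all controls (36% of tested genes were below 0 and 13.3% lay below without overlap). The median depended on the scaling, at -0.65 with size factors and -0.36 with limma-voom (14 of 14 below 0 in both), -0.27 with quantile normalization and -0.17 with log2 depth as a covariate (12 of 14 in both). Averaged over the 14 genes, core levels ranged from 69.6 to 93.1 eRPKM in controls, from 60.1 to 99.3 after 3 days and from 56.8 to 61.4 after 7 days. The 17 cap subunits of base and lid averaged 49.4 to 53.6, 47.5 to 59.1 and 45.8 to 54.01 eRPKM. The ratio of core to cap was therefore 1.43, 1.41, 1.42 and 1.86 in the controls, 1.78, 1.41, 1.27 and 1.65 after 3 days and 1.117, 1.24 and 1.14 after 7 days. Every 7-day liver had a lower ratio than any control, with or without control 4, and 3-day liver 3 lay just above the 7-day livers.

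The 3 subunits that cut proteins are Psmb5, with chymotrypsin-like activity (chromosome 14, 55232644 to 55236851, minus strand in mm9), Psmb6, with caspase-like activity (chromosome 11, 70338869 to 70341360, plus strand), and Psmb7, with trypsin-like activity (chromosome 2, 38443556 to 38499607, minus strand). Psmb5 was at 78.6, 60.3, 57.4 and 109.6 eRPKM in the controls, 84.9, 86.3, 56.0 and 101.4 after 3 days of induction and 62.8, 49.6 and 69.0 after 7 days. Groups overlapped, since controls 2 and 3 lay among the 7-day livers. The log2 fold change at 7 days was -0.30 (95% interval -0.83 to 0.23, adjusted p = 0.361). Psmb6 was at 97.6, 96.5, 95.7 and 142 eRPKM in the controls, 127, 106, 80.2 and 129 after 3 days of induction and 73.9, 77.3 and 83.2 after 7 days. All 7-day livers lay below all controls, of which control 4 stood apart on the high side. Its log2 fold change was -0.44 (95% interval -0.86 to -0.02, adjusted p = 0.0895). Psmb7 was at 30.6, 30.6, 35.2 and 38.4 eRPKM in the controls, 38.2, 32.5, 28.3 and 38.8 after 3 days of induction and 25.8, 23.9 and 25.3 after 7 days. Its 7-day livers lay below every other liver, with means of 25.01 ± 0.994 (SD, n = 3) against 33.7 ± 3.83 (SD, n = 4) eRPKM. The log2 fold change of -0.42 (95% interval -0.74 to -0.09, adjusted p = 0.0451) passed an adjusted p of 0.05 and not 0.01. Exons of Psmb5 and Psmb7 overlap those of Mir686 and Nek6, where the counting of shared reads was not stated, and named pseudogenes of all 3 genes are annotated in mm9.

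Among the alpha subunits, Psma4 (chromosome 9, 54798597 to 54805837, plus strand) had the lowest fold change and Psma8 the highest. Psma4 was at 112, 115, 128 and 164 eRPKM in the controls, 177, 119, 93.1 and 155 after 3 days of induction and 81.1, 81.9 and 88.0 after 7 days. The 7-day livers lay below all other livers, at 83.7 ± 3.78 (SD, n = 3) against 129.5 ± 23.8 (SD, n = 4) eRPKM in controls. Its log2 fold change was -0.61 (95% interval -1.07 to -0.15, adjusted p = 0.0375), and exons of AY074887 overlap it. Psma8 was at 1.553, 1.30, 1.60 and 0.880 eRPKM in the controls, 1.86, 1.364, 1.64 and 1.05 after 3 days of induction and 1.33, 0.925 and 1.86 after 7 days, with overlapping groups and a log2 fold change of 0.02 (95% interval -0.57 to 0.61, adjusted p = 0.962). The other alpha subunits (Psma1 to Psma3 and Psma5 to Psma7) lay between -0.55 and -0.19, and Psma3 passed an adjusted p of 0.05 (-0.55 (SE 0.19, adjusted p = 0.0407)).

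Among the beta subunits the structural subunit Psmb1 (chromosome 17, 15612685 to 15635240, minus strand) had the lowest and Psmb2, another subunit without a protease site, the highest fold change. Psmb1 was at 90.4, 88.2, 109 and 128 eRPKM in the controls, 137, 94.5, 79.9 and 136 after 3 days of induction and 66.8, 69.3 and 66.5 after 7 days. All 7-day livers lay below all others, and the log2 fold change was -0.60 (95% interval -1.05 to -0.16, adjusted p = 0.0339). Psmb2 was at 23.2, 24.0, 22.6 and 25.7 eRPKM in the controls, 21.4, 30.3, 22.7 and 21.8 after 3 days of induction and 23.9, 20.2 and 23.1 after 7 days. These ranges overlapped, and the log2 fold change of -0.09 (95% interval -0.43 to 0.24, adjusted p = 0.664) was smaller than the spread between livers. Psmb3, Psmb4 and Psmb11 lay between -0.45 and -0.27 with adjusted p of 0.21 to 0.30.

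**Figure D3:**
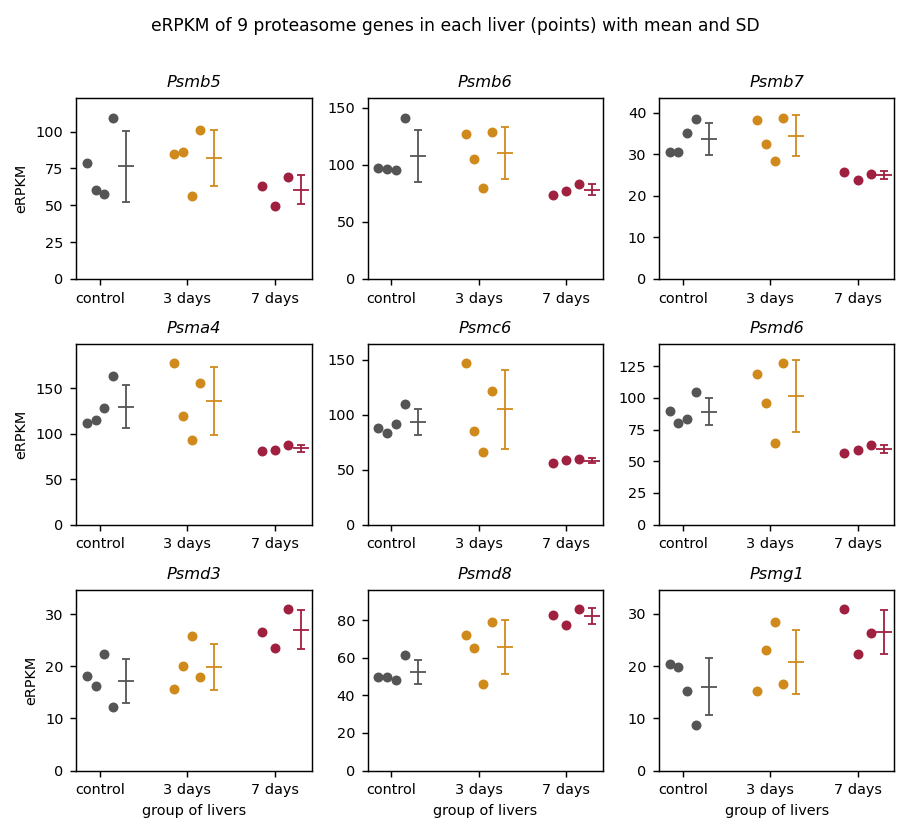
eRPKM (vertical axes, from 0) of 9 proteasome genes in each liver (points) by group, with the mean and SD beside the points. The 7-day livers lie below all controls for Psmb6, Psmb7, Psma4, Psmc6 and Psmd6 and above all controls for Psmd3, Psmd8 and Psmg1, while those of Psmb5 overlap the controls.

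As deposited, the cap showed no common direction. Of its 17 base and lid subunits, 7 were below 0 and 10 above at 7 days, with a median log2 fold change of 0.01. With size factors, 5 of 6 ATPases, 3 of 3 other base subunits and 5 of 8 lid subunits were below 0. Their medians were -0.22, -0.32 and -0.21. With quantile normalization, 1 of 6, 2 of 3 and 4 of 8 were below 0. Among the ATPases, Psmc5 (chromosome 11, 106117468 to 106124434, plus strand) was at 48.0, 54.4, 76.7 and 32.2 eRPKM in the controls, 30.5, 58.0, 77.8 and 43.7 after 3 days of induction and 77.4, 62.8 and 80.5 after 7 days. Controls alone spanned the range from 32.2 to 76.7, and the log2 fold change was 0.53 (95% interval -0.14 to 1.21, adjusted p = 0.195). Psmc6 (chromosome 14, 45949504 to 45969367, plus strand) was at 88.5, 83.2, 91.7 and 110.1 eRPKM in the controls, 147, 85.3, 65.9 and 122 after 3 days of induction and 56.0, 58.8 and 60.04 after 7 days. It had the lowest fold change of all 45 members, -0.67 (95% interval -1.17 to -0.17, adjusted p = 0.0366), with every 7-day liver below every other liver. The remaining ATPases (Psmc1 to Psmc4) lay between -0.06 and 0.10. In the base without ATPase function, the scaffold subunit Psmd1 was at 41.3, 40.5, 45.8 and 35.5 eRPKM in the controls, 38.6, 43.3, 37.2 and 43.7 after 3 days of induction and 42.5, 35.2 and 44.0 after 7 days, and its log2 fold change was -0.01 (95% interval -0.31 to 0.30, adjusted p = 0.974). The ubiquitin receptor Psmd4 was at 48.1, 47.8, 52.3 and 57.0 eRPKM in the controls, 52.2, 53.4, 38.5 and 57.8 after 3 days of induction and 40.8, 40.5 and 45.7 after 7 days. Its 7-day livers lay below all controls, with a log2 fold change of -0.27 (95% interval -0.61 to 0.06, adjusted p = 0.183), and the scaffold subunit Psmd2 was at -0.05.

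The lid subunits stood on both sides of the controls. Psmd3 (chromosome 11, 98543868 to 98557293, plus strand) was at 18.1, 16.3, 22.4 and 12.1 eRPKM in the controls, 15.6, 19.99, 25.8 and 17.9 after 3 days of induction and 26.6, 23.5 and 31.0 after 7 days. All 7-day livers lay above all controls, and its log2 fold change was 0.66 (95% interval 0.18 to 1.13, adjusted p = 0.0320). Gm12356 overlaps its exons. Psmd6 (chromosome 14, 14944698 to 14953498, minus strand) was at 89.3, 79.9, 83.3 and 104 eRPKM in the controls, 119, 96.0, 64.3 and 127 after 3 days of induction and 56.4, 59.2 and 63.2 after 7 days, so that its 7-day livers lay below all others, with a log2 fold change of -0.57 (95% interval -1.02 to -0.12, adjusted p = 0.0460). Psmd8 (chromosome 7, 29959207 to 29965692, minus strand), which was chosen after its values were seen because it had the lowest adjusted p of all members, was at 49.7, 49.8, 48.2 and 61.7 eRPKM in the controls, 72.3, 65.1, 45.9 and 79.2 after 3 days of induction and 83.0, 77.5 and 85.9 after 7 days. Its 7-day livers averaged 82.1 ± 4.25 (SD, n = 3) eRPKM against 52.3 ± 6.29 (SD, n = 4) in controls, and only 3-day liver 4 reached into their range. The log2 fold change was 0.65 (95% interval 0.26 to 1.04, adjusted p = 0.0126). It was called (adjusted p under 0.01) without control 4, with limma-voom and after quantile normalization, where its log2 fold change was 0.90. It was not called with size factors, or with log2 depth or the label suffix MF as a covariate. With size factors, 0 of 45 members had all 7-day livers above all controls (26.9% of tested genes). Psmd7 stood at 0.62 (SE 0.31, adjusted p = 0.140), Psmd11 at -0.35 (SE 0.14, adjusted p = 0.0637), and Psmd12, Psmd13 and the deubiquitinase Psmd14 between 0.00 and 0.11.

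**Figure D4:**
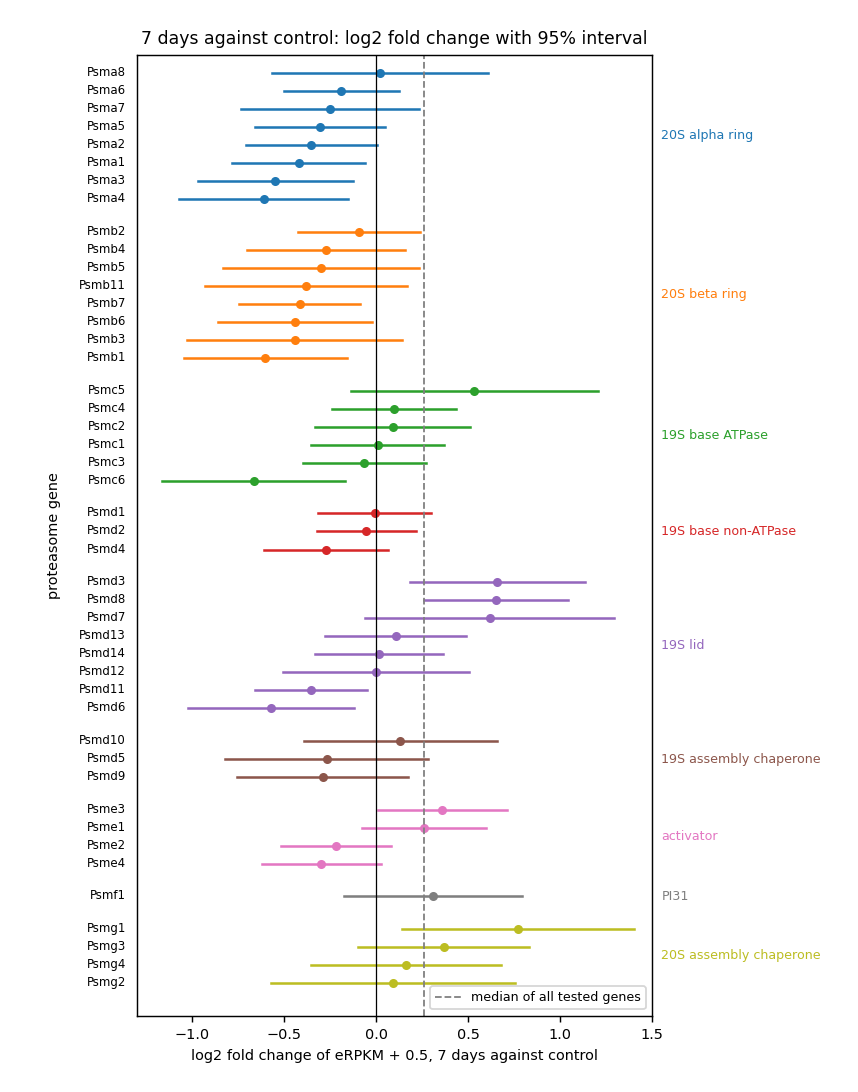
Log2 fold change of eRPKM + 0.5 at 7 days against control (horizontal axis) for the 45 genes, by structural class. Points are estimates, lines are 95% intervals and the dashed line is the median of all tested genes (0.26). The 14 constitutive core subunits lie left of 0, and Psmd3, Psmd8 and Psmg1 have intervals that lie right of 0.

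The 4 chaperones of core assembly were above 0 at 7 days as deposited, with a median of 0.26, but 2 of 4 were below 0 with size factors and with quantile normalization. Psmg1 (chromosome 16, 96201540 to 96212567, minus strand), which pairs with Psmg2 to build the alpha ring, was at 20.5, 19.9, 15.1 and 8.66 eRPKM in the controls, 15.2, 23.1, 28.4 and 16.6 after 3 days of induction and 30.9, 22.4 and 26.3 after 7 days. Its 7-day livers lay above all controls, although 3-day livers 2 and 3 reached as high, and its log2 fold change of 0.77 (95% interval 0.14 to 1.399, adjusted p = 0.0538) was the highest of the 45. Psmg2 was at 11.17, 10.8, 8.12 and 5.80 eRPKM in the controls, 10.3, 15.4, 10.8 and 6.07 after 3 days of induction and 11.4, 7.04 and 9.99 after 7 days, with overlapping groups and a log2 fold change of 0.09 (95% interval -0.57 to 0.75, adjusted p = 0.840). Psmg3 and Psmg4 stood at 0.37 and 0.16. Of the chaperones of the base, Psmd10 (gankyrin) was at 10.1, 13.1, 9.41 and 11.7 eRPKM in the controls, 13.8, 12.7, 6.52 and 13.2 after 3 days of induction and 13.1, 12.2 and 11.04 after 7 days. It had its lowest level in 3-day liver 3, and its log2 fold change was 0.13 (95% interval -0.39 to 0.66, adjusted p = 0.7003). Psmd9 was at 18.6, 17.8, 17.0 and 9.88 eRPKM in the controls, 13.5, 12.9, 14.7 and 17.6 after 3 days of induction and 12.6, 13.1 and 11.8 after 7 days. Its 7-day range overlapped that of the controls only through control 4, and the log2 fold change was -0.29 (95% interval -0.76 to 0.17, adjusted p = 0.308). Psmd5 stood at -0.27 (SE 0.25, adjusted p = 0.433).

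Activators and inhibitor did not pass the threshold either. Psme3 (PA28 gamma, the nuclear activator) was at 30.8, 36.6, 30.2 and 29.9 eRPKM in the controls, 28.9, 41.3, 34.3 and 32.0 after 3 days of induction and 45.6, 34.0 and 44.1 after 7 days. Its log2 fold change was 0.36 (95% interval 0.01 to 0.71, adjusted p = 0.0979), and 7-day liver 2 lay inside the range of controls. Psme4 (PA200) was at 33.7, 30.5, 30.1 and 29.5 eRPKM in the controls, 39.4, 32.3, 26.3 and 34.2 after 3 days of induction and 25.8, 25.4 and 23.9 after 7 days. All 7-day livers lay below all others, with a log2 fold change of -0.30 (95% interval -0.62 to 0.02, adjusted p = 0.132). The interferon-inducible activators Psme1 and Psme2 differed in direction, with 0.26 (SE 0.16, adjusted p = 0.210) and -0.22 (SE 0.14, adjusted p = 0.228). Psmf1 (PI31), which binds the core, was at 9.89, 10.4, 7.86 and 6.66 eRPKM in the controls, 6.58, 11.01, 9.58 and 6.93 after 3 days of induction and 11.8, 10.1 and 10.4 after 7 days, with a log2 fold change of 0.31 (95% interval -0.18 to 0.79, adjusted p = 0.301) and a 7-day range that overlapped controls.

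Between 3 and 7 days core subunits again stood lower, and limma called 0 of 45 members (19.3% of tested genes, 14% higher and 5.31% lower). At an unadjusted p under 0.05, 0 members were higher (32.2% of tested genes) and 14 lower (13.9%). By limma-voom 0 members were called (19% of tested genes higher and 6.26% lower). With an adjusted p under 0.05 and any fold, 0 were higher (25.4%) and 7 lower (10.3%). The median was -0.15 for members and 0.26 for all tested genes. The groups did not overlap for 0 members upward (31.3% of tested genes) and 8 downward (13.8%): Psma1, Psma4, Psmb1, Psmb7, Psmc6, Psmd5, Psmd6 and Psme4. Psmc6 had the lowest value, -0.78 (95% interval -1.28 to -0.28, adjusted p = 0.0206), and Psmc5 the highest, 0.56 (95% interval -0.11 to 1.23, adjusted p = 0.176). These counts moved with the livers included. Without 3-day liver 3, 9 members were called lower (Psma1, Psma2, Psma3, Psma4, Psma7, Psmb1, Psmb3, Psmc6 and Psmd6, beside 7.47% of tested genes) and 21 lay below without overlap (18.5%). Without the MF livers, which include 7-day liver 2, 0 were called lower (1.48% of tested genes). The members' median was then -0.05, and 11 of 45 lay below without overlap (24.6% of tested genes). The 3-day and 7-day comparisons share the same 4 controls.

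Read density moved with these differences. Over all tested genes, the median log2 fold change at 7 days decreased with density, from 0.43 under 50 reads per kilobase to 0.30 at 50 to 100, 0.07 at 100 to 200, -0.16 at 200 to 300 and -0.50 at 300 or more. The members, whose mean densities ran from 5.50 (Psma8) to 549.9 (Psmb4), had medians of 0.09 (5 members), 0.26 (8), -0.01 (13), -0.22 (9) and -0.36 (10) in these bins. Of the 14 core subunits, 10 had at least 200 reads per kilobase. Set against the median of its own bin, 11 of 14 were lower and 3 higher, with a median difference of -0.16 in place of the -0.39 against controls. Psmd8 (265 reads per kilobase), Psme1 (445) and Psmc5 (242) were among the members well above their bins. Of the ATPases, 5 of 6 lay above the median of their bin. Across the 45 members, which share libraries and depth, Spearman's rho between density and log2 fold change was -0.38 (-0.22 across the 14244 tested genes). The part of read density in the lower core values was not tested.

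**Figure D5:**
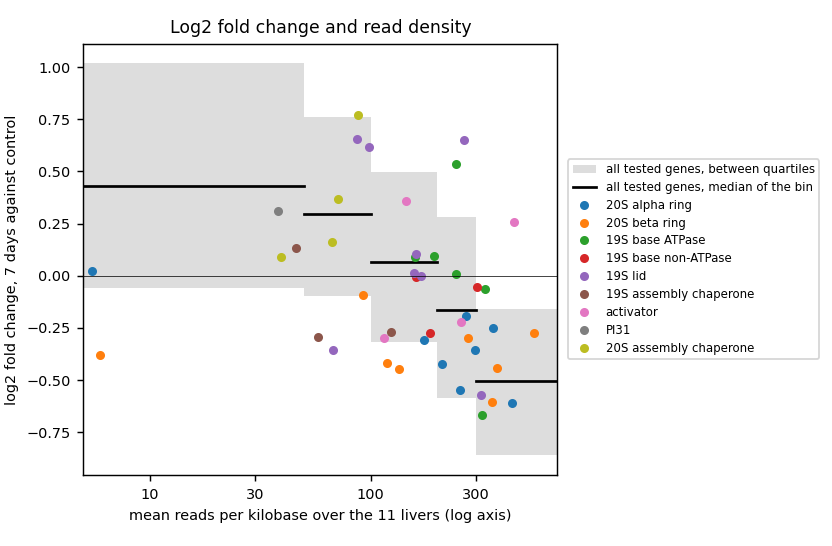
Log2 fold change at 7 days against control (vertical axis) by mean reads per kilobase over the 11 livers (log axis). Coloured points are the 45 members by class, black lines the medians of all tested genes in 5 density bins and grey bands the span between their quartiles. Bin medians decrease from 0.43 to -0.50, and most core subunits lie at or below the line of their bin. Psmc5, Psmd8 and Psme1 are among the members above it.

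Beside the members, 35 of 41 symbols of the pathway list were tested. At 7 days 4 of 35 were called higher (18% of all tested genes) and 1 lower (5.77%), and at 3 days 0 were called (0.0421% of all tested genes). The immunoproteasome subunits Psmb8, Psmb9 and Psmb10 replace Psmb5, Psmb6 and Psmb7 in cells exposed to interferon. Psmb8 was at 28.5, 43.5, 38.2 and 33.6 eRPKM in the controls, 50.9, 52.3, 42.9 and 51.9 after 3 days of induction and 36.1, 38.9 and 40.0 after 7 days. These overlapped, with 0.11 (SE 0.16, adjusted p = 0.618) at 7 days. Psmb9 and Psmb10 stood at -0.01 (SE 0.28, adjusted p = 0.985) and 0.04 (SE 0.19, adjusted p = 0.893). Pomp, the maturation factor of the core, was at 16.7, 17.8, 19.5 and 23.3 eRPKM in the controls, 19.6, 22.1, 19.9 and 17.7 after 3 days of induction and 15.2, 13.7 and 15.1 after 7 days. All 7-day livers lay below all controls, with -0.38 (SE 0.15, adjusted p = 0.0687). Pomp was called lower with quantile normalization (-0.79, adjusted p = 0.00497), and its value was -0.64 with size factors, -0.36 with limma-voom and -0.19 with log2 depth as a covariate, with adjusted p of 0.0195, 0.0859 and 0.430. Adrm1, a ubiquitin receptor of the base, stood at 0.37 (SE 0.18, adjusted p = 0.117).

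Akirin2, which carries proteasomes into the nucleus, was at 26.1, 20.5, 21.6 and 15.8 eRPKM in the controls, 34.1, 37.0, 29.6 and 31.0 after 3 days of induction and 46.6, 41.7 and 38.0 after 7 days. All induced livers lay above all controls, and it rose at 7 days by a log2 fold change of 1.004 (SE 0.17, adjusted p = 0.000645). Nfe2l1, the factor that raises subunit genes, was at 38.2, 57.0, 61.4 and 37.1 eRPKM in the controls, 39.6, 43.0, 47.7 and 44.3 after 3 days of induction and 46.5, 46.7 and 41.8 after 7 days, with -0.07 (SE 0.18, adjusted p = 0.790). Its relative Nfe2l2, which answers oxidative stress, was at 42.3, 46.2, 43.9 and 33.2 eRPKM in the controls, 38.3, 51.6, 56.1 and 32.2 after 3 days of induction and 82.2, 71.7 and 78.9 after 7 days. It rose to 77.6 eRPKM at 7 days against 41.4 in controls, a log2 fold change of 0.91 (SE 0.19, adjusted p = 0.00293), which missed the threshold with size factors (adjusted p = 0.0140). Mafk, a small Maf protein that pairs with both factors, was called higher at 1.05 (SE 0.19, adjusted p = 0.000821). Of the 3 subunits of NF-Y, which binds CCAAT boxes, Nfya was called higher with 1.44 (SE 0.17, adjusted p = 4.05e-05) and Nfyb lower with -0.88 (SE 0.18, adjusted p = 0.00222), while Nfyc stood at 0.64 (SE 0.23, adjusted p = 0.0403). With log2 depth as a covariate only Nfya and Nfyb of these genes passed. Of 14 genes for ubiquitin and its delivery, 0 were called, with log2 fold changes from -0.59 to 0.40 and a median of -0.12.

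Promoters were searched for the letters those factors bind. RefSeq promoters (250 bases before to 50 after the start, build GRCm38.p6) were matched for 37 of 45 members, with 40 promoters. TGACNNNGC, the core of the antioxidant response element, was searched on both strands and found in 6 of 40 member promoters (15%) and in 12.4% of 32851 promoters. The 6 belong to Psmb5, Psmb6, Psmc6, Psmd12, Psmd9 and Psme4, whose log2 fold changes at 7 days ran from -0.67 to 0.00 with a median of -0.30, beside -0.05 for the 31 matched members without the letters. CCAAT, on either strand, was in 13 of 40 (32.5%) and in 37.4% of all promoters. Printed here are 2 catalytic subunits with a match, the member with the lowest fold change and the member with the lowest adjusted p, which holds no match. Capitals mark TGACNNNGC or its reverse GCNNNGTCA. The windows are chr14:54617946-54618245, minus strand (Psmb5), chr11:70525107-70525406, plus strand (Psmb6), chr14:45329574-45329873, plus strand (Psmc6) and chr7:29180624-29180923, minus strand (Psmd8).
Psmb5: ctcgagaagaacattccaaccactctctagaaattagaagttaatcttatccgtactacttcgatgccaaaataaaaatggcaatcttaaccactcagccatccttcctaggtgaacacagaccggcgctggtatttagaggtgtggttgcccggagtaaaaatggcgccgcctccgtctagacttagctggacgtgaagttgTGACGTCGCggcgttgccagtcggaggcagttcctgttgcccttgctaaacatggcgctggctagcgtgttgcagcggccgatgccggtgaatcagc
Psmb6: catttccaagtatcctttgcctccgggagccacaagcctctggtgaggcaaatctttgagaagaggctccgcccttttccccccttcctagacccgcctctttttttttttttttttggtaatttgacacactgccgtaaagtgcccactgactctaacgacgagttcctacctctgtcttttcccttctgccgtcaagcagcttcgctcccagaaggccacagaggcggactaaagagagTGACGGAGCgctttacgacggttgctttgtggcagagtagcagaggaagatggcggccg
Psmc6: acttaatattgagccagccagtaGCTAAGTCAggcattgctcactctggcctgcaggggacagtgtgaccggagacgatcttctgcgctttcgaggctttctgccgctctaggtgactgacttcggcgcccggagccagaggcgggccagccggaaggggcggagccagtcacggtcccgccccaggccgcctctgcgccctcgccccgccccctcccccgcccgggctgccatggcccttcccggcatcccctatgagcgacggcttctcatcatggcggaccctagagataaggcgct
Psmd8: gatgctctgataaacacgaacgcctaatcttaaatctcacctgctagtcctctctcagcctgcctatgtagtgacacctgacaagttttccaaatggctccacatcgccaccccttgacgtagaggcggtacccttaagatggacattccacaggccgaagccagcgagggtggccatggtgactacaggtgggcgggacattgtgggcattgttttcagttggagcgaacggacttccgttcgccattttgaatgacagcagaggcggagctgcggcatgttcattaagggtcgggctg
In Psmb5 and Psmb6 the match begins 47 and 9 bases before the start site, in Psmc6 227 bases before it. A match of letters is a description of the sequence and not a binding site.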

How the data were processed

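RNA was measured in 11 mouse livers (4 controls, 4 at 3 days, 3 at 7 days of doxycycline), grouped by sample titles. Per the labels' processing notes, the authors aligned reads to mm9 with TopHat2 2.0.8 and counted them with featureCounts 1.4.5-p1, with the aligner set to unstranded reads according to the study's methods. The authors deposited eRPKM, a form of RPKM, for each liver. The authors' DESeq2 columns for 7 days against control (mean signal, log2 fold change, adjusted p-value) were not used. Reads behind each value were recovered from the steps of the values (100% whole within 0.1 read) for depth, read density and 1 alternative.

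Genes that reached 0.5 eRPKM in 3 livers or more were fitted with limma 3.58.1 (R 4.3.3, lmFit and eBayes with trend) on log2(eRPKM + 0.5), a scale that understates changes of low genes. All 3 groups shared 1 fit, with Benjamini-Hochberg adjustment over 14244 genes. Calls needed an adjusted p under 0.01 with more than 0.5 log2 units of change. The step was tested on simulated data. Values were given for Psmb5, Psmb6 and Psmb7, for the highest and lowest 7-day fold change in each structural class, and for listed pathway genes. Psma7 and Psmd8 were added outside this rule, with their values already seen. Members and lists were chosen with earlier results of these data known. Gene positions and exon overlaps came from GENCODE M1 on mm9, the authors' build, and marker lists covered 9 cell types. Alternatives covered pseudocount, filter, scaling, covariates, limma-voom and left-out livers. Python 3.11.15, pandas 2.3.3, numpy 2.4.6 and matplotlib 3.10.9 were used. Depth of 1251396 to 5941357 reads sets the counting error of the low members, and p-values measure the spread between mice.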

Additional observations from a re-analysis of the deposited data

Results flagged for a closer look

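In 60 groups of 4 livers (named members and class medians in controls and at 3 days), 6 had a liver whose gap to its neighbour as a share of the group's range was above Dixon's 95% critical value, and chance flags about 1 in 20 groups. Control 4, the shallowest library, stood apart in 4 of them. It was highest for Psmb6 (0.951 of the range), Psmd8 (0.868) and the median of the beta subunits (0.926), and lowest for Psmd9 (0.849). Control 2 was highest for Psme3 (0.864), and 3-day liver 3 was lowest for Psmd10 (0.889).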

How the results depend on the processing

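Calls of members depended on the processing at 7 days against control, where the deposited values gave 0 higher and 0 lower. Higher and lower counts were 0 and 1 with median-ratio size factors (Psmd11 lower), 2 and 4 with quantile normalization (Psmd8 and Psme1 against Psmb7, Psmd11, Psmd9 and Psme4), 1 and 3 with only the 2 compared groups in the fit, 1 and 3 with the label suffix MF as a covariate (Psmd3 against Psma3, Psmb1 and Psmc6), 1 and 0 with limma-voom, and 2 and 6 at an adjusted p under 0.05 with any fold. Of all tested genes, the 5 fits called 13% to 20.5% higher and 6.6% to 12.8% lower, and the looser threshold passed 27.9% and 9.98%. From 3 to 7 days, quantile normalization gave 2 higher (10.1% of tested genes) and the looser threshold 7 lower (10.3%). Leaving out 1 liver gave 0 to 1 higher members at 7 days against control (11.1% to 17.2% of tested genes). From 3 to 7 days it gave 0 to 9 lower members (2.56% to 7.47%). With size factors the members' median was -0.36 at 7 days against control and -0.39 from 3 to 7 days, and at 3 days against control it was -0.082 without the MF livers. The cause was not tested.

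Counts of members whose groups do not overlap moved as well. At 3 days against control they were 1 higher and 2 lower in livers with more Xist than Ddx3y (13.2% and 17.8% of tested genes). With the 2 deepest controls only, 2 were lower (13.7%), and without the MF livers 2 were higher and 1 lower (13.9% and 6.58%). Leaving out 1 liver gave 0 to 4 higher (4.02% to 7.06%) and 0 to 1 lower (2.82% to 7.08%). At 7 days against control the higher count was 0 with size factors (26.9% of tested genes) and 12 without the MF livers (39.8%). Leaving out 1 liver gave 5 to 12 higher (37.6% to 41.4%). The lower count was 21 with size factors (23.3%) and 16 with quantile normalization (28.4%). From 3 to 7 days the lower count was 20 with size factors (21.3% of tested genes) and 11 without the MF livers (24.6%). The higher count was 3 with quantile normalization (18.9%), 1 in livers with more Xist than Ddx3y (35.9%) and 6 without the MF livers (42%). Leaving out 1 liver gave 8 to 21 lower (14.6% to 18.5%) and 0 to 4 higher (32.7% to 39%). These overlap counts, the 2 deepest controls and the removal of MF livers were chosen after seeing the data. The motif TGACTCAGC was found in 0 of 40 member promoters and in 0.454% of all promoters.

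The main fit did not pair livers by replicate number. Same-numbered livers correlated between -0.22 and 0.27 in their deviations, and 5 of 20 best matches had the same number. These values cannot show whether the livers were paired in the experiment. With a replicate block, 1 member was called higher at 7 days against control (Psmd8, beside 14.3% of tested genes). Pseudocounts of 1 and 0.1, both filters, robust eBayes, log2 Xist, log2 depth and livers with more Xist than Ddx3y left the calls at 0 in all 3 comparisons. At 7 days against control those settings called 7.72% to 19.5% of tested genes higher and 3.61% to 6.58% lower. Members with few reads (Psma8 and Psmb11) allow only large changes to be seen at this depth.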

Other observations

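Base composition of the annotated coding transcripts also moved with the 7-day values. It was known for 45 of 45 members and for 88.9% of tested genes. Over tested genes the median log2 fold change at 7 days against control was -0.03 for transcripts under 46% G and C, 0.18 at 46 to 50%, 0.31 at 50 to 54% and 0.57 at 54% or more. Members in these classes stood at -0.33 (8 members), -0.10 (16), -0.07 (14) and -0.06 (7). Alpha subunits had a median of 44.96% and beta subunits of 51.6%. The part of base composition in the members' values was not tested.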
